A study of Mus musculus with 4 samples.

Results

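The signalling adaptors and Fc receptors described here are Fcer1g, Tyrobp, Hcst, Syk, Fcgr3, Fcgr2b and Ncr1, and all probe sets whose platform gene symbol is one of these names were taken: 14 probe sets of 7 genes, among 45101 probe sets and 18193 named genes on the array. The 2 groups were Ly49+ cells, sorted as CD44+CD122+Ly49+ CD8 T cells and named CD8+ Treg in the labels, and Ly49- cells, sorted as CD44+CD122+Ly49- CD8 T cells and named a conventional memory type. Both were spleen cells of B6 mice of wild-type genotype, with no treatment given, and each group had 2 Affymetrix arrays. The labels do not state age or sex, or whether the arrays of a group stem from different mice. The p-values therefore cover the spread among these arrays alone, which can be technical. The comparison asks how the adaptor and Fc receptor genes differ between these CD8 T cell populations.

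Receptors of natural killer (NK) and myeloid cells often have no signalling tail of their own. They pair with small membrane adaptors instead. FcRγ, encoded by Fcer1g, and DAP12, encoded by Tyrobp, carry an immunoreceptor tyrosine-based activation motif (ITAM), which after phosphorylation recruits the kinases SYK or ZAP70. DAP10, encoded by Hcst, carries a different motif that recruits phosphoinositide 3-kinase and serves the receptor NKG2D. The Fc receptors FcγRIII (Fcgr3) and FcγRIIB (Fcgr2b) bind IgG. FcγRIII signals through FcRγ, and FcγRIIB inhibits through an ITIM in its own tail. NKp46, encoded by Ncr1, pairs with FcRγ or the CD3ζ chain on NK cells. Fcer1g, Tyrobp, Syk and both Fc receptor genes are also well known from macrophages.

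RefSeq promoter windows (assembly GRCm38.p6, 250 bases before to 50 bases after the start) matched 6 of the 7 genes; Tyrobp was not matched. The windows of Fcer1g and Hcst are shown because Fcer1g rose on the arrays while Hcst, another adaptor gene, did not pass the test. The Fcer1g window is chr1:171234300-171234599 and the Hcst window chr7:30419805-30420104, both on the minus strand. Capitals mark AGGAAG, an ETS-type core, TGTGGT, a RUNX-type core, and CAGCTG, an E-box, each searched on both strands.
Fcer1g: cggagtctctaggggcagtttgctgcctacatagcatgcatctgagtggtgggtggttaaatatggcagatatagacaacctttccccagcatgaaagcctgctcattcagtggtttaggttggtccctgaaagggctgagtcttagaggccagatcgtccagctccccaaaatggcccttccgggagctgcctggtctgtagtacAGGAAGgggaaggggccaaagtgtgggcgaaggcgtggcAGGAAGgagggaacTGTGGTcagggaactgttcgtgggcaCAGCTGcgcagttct
Hcst: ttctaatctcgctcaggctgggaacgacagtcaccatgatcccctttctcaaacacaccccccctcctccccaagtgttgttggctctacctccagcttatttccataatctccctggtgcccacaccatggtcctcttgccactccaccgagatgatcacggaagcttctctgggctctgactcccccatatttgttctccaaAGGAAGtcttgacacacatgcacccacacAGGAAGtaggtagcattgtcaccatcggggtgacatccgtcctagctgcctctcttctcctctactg
The Fcer1g window held AGGAAG at 2 places and TGTGGT and CAGCTG at 1 place each, with no overlap. The Hcst window held AGGAAG at 2 places and neither of the other motifs. Among the other genes not called, each Ncr1 window held TGTGGT at 2 places, and 1 Syk window held CAGCTG. Of 32851 windows of 300 bases in the table, 35.4% held AGGAAG, 16.8% TGTGGT and 16.3% CAGCTG. These matches describe the letters of the windows only.

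The median deposited intensity of an array was 188.5 to 190.4, and pairwise correlations across probe sets between 0.996 and 0.998. The array of Ly49- replicate 1 stood apart in the spiked bacterial hybridisation controls: a BioB probe set read 2968 and 3084 on the Ly49+ arrays, and 702 and 2750 on those of Ly49- replicates 1 and 2. Results are therefore also given without that array. The sort genes Cd8a, Cd8b1, Cd44 and Il2rb and the CD3 genes Cd3e, Cd3d and Cd3g were among 13 measured T-cell markers, all read above the bacterial control level in both groups. That level, 65.3, is the highest mean of 27 probe sets for bacterial genes that read near the bottom of the scale, and means under it are treated here as not above background. Differences were tested with limma for each probe set on the log2(intensity + 16) scale, and a probe set was called when its Benjamini-Hochberg adjusted p over 45037 probe sets was under 0.05.

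Fcer1g and Tyrobp were higher in Ly49+ cells, and none of the other member genes passed the test. Of the 14 probe sets, 2 were called higher, 0 lower and 12 did not pass, where 0.766% of all probe sets were called higher and 0.429% lower. At an unadjusted p under 0.05 there were 6 of the 14, Hcst among them with Ly49+ lower, where 13.3% of all probe sets had one. Of the 14, 11 read above the bacterial control level in both groups, from 6 of the 7 genes. The groups did not overlap for 8 probe sets with Ly49+ higher, where 15.7% of all probe sets had that order, and for 1 with Ly49+ lower, where 29.1% had it. Of the 8, 4 were probe sets of Fcgr2b, and probe sets of the same gene are not independent. The median log2 difference of the 14 was 0.19, beside -0.03 over all probe sets.

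**Figure D1:**
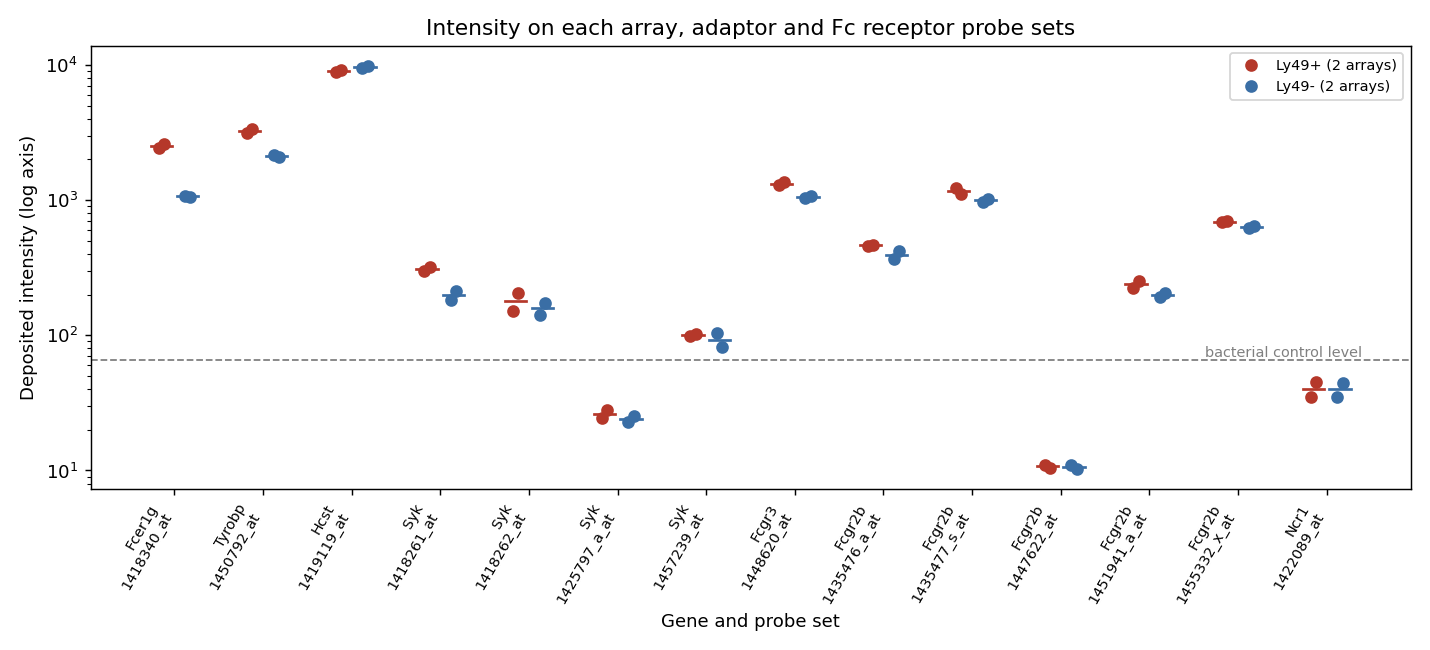
Deposited intensity on a log axis for each of the 14 probe sets, with a point per array, a bar at the group mean, Ly49+ in red and Ly49- in blue, and a dashed line at the bacterial control level of 65.3. Fcer1g and Tyrobp show the groups apart with Ly49+ higher, the Hcst groups lie close together with Ly49+ lower, and Ncr1, 1 Syk and 1 Fcgr2b probe set lie under the line.

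Among the adaptors, Fcer1g had the largest difference. Its intensity was 2410 and 2590 on the Ly49+ arrays, against 1081 and 1053 on the Ly49- arrays. Both Ly49+ arrays lay far above both Ly49- arrays, and the arrays of a group differed little. The means were 2500 ± 127 in Ly49+ and 1067 ± 19.4 in Ly49- cells (SD, n = 2 each), a 2.32-fold difference with an unadjusted 95% interval of 2.07 to 2.61 (log2 difference 1.22 ± 0.07 SE, limma adjusted p = 0.0019). Fcer1g passed in each of the fits that left out 1 array. Without Ly49- replicate 1 its log2 difference was 1.23 (adjusted p = 0.026).

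Tyrobp read 3133 and 3372 on the Ly49+ arrays, against 2157 and 2089 on the Ly49- arrays. The groups did not overlap, and the gap between them was wider than the spread in either. Its means of 3252 ± 169 in Ly49+ and 2123 ± 47.8 in Ly49- cells (SD, n = 2 each) gave a 1.53-fold difference with an interval of 1.38 to 1.70 (log2 difference 0.61 ± 0.06 SE, adjusted p = 0.012). Tyrobp missed the threshold whenever 1 array was left out. When Ly49+ replicate 1 or 2 was dropped, the limma adjusted p was 0.056 or 0.099 and the log2 difference 0.66 or 0.56. When Ly49- replicate 1 or 2 was dropped, the limma adjusted p was 0.086 or 0.10 and the log2 difference 0.63 or 0.59. It also missed it without a trend of the spread on the level (adjusted p = 0.056).

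Hcst is the protein-coding neighbour of Tyrobp on chromosome 7 in the RefSeq list, and it did not pass the test. It read 8849 and 9200 on the Ly49+ arrays, against 9567 and 9812 on the Ly49- arrays. Both Ly49+ arrays were slightly below both Ly49- arrays. The log2 difference was -0.10 ± 0.04 SE (adjusted p = 0.35), with an unadjusted interval for the ratio of Ly49+ to Ly49- of 0.870 to 0.997. The upper end of that interval lies below the whole interval of Tyrobp. The Hcst probe set lay well above the bacterial control level on all 4 arrays.

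Syk, the kinase that binds phosphorylated ITAMs, was read by 4 probe sets that disagreed in size. The brightest read 299 and 321 on the Ly49+ arrays, against 183 and 212 on the Ly49- arrays. Its groups did not overlap, and the log2 difference was 0.61 ± 0.12 SE, but it did not pass (limma adjusted p = 0.080). It passed at an adjusted p of 0.023 when only the brightest probe set of each gene was tested. The next probe set read 152 and 206 in Ly49+ and 142 and 175 in Ly49- cells, and the third 98.8 and 102 in Ly49+ and 103 and 82.0 in Ly49- cells. The groups overlapped in both of these, with log2 differences of 0.16 and 0.10. The remaining Syk probe set was under the bacterial control level in both groups.

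**Figure D2:**
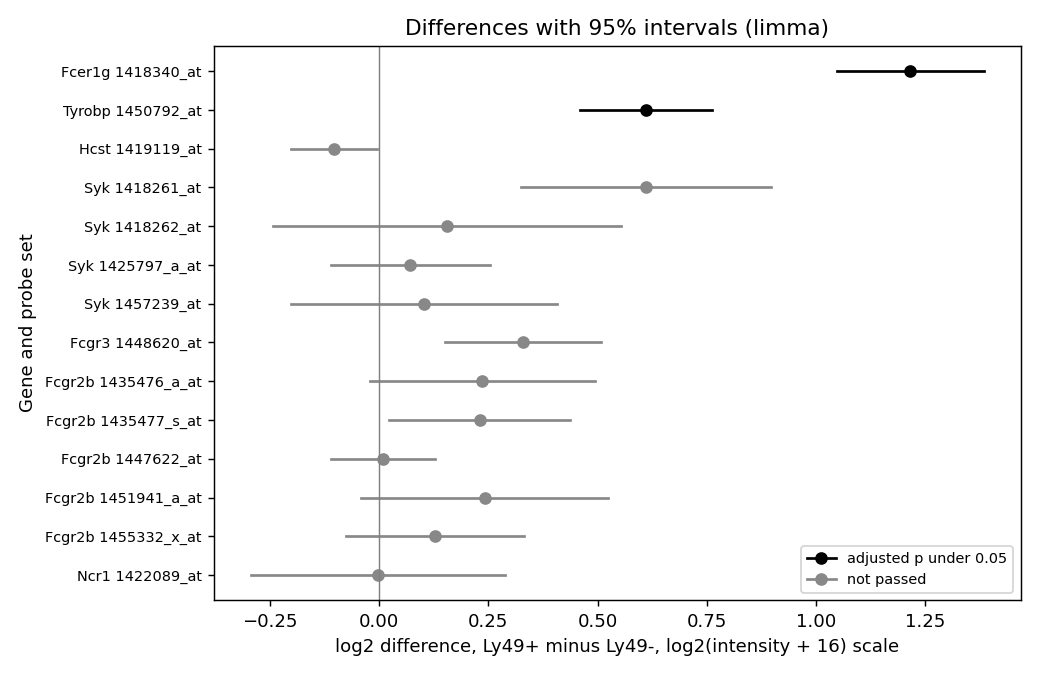
Log2 difference of Ly49+ minus Ly49- for each of the 14 probe sets, with its unadjusted 95% interval from limma as a bar, black where the adjusted p was under 0.05 and grey otherwise. Fcer1g at 1.22 stands apart, Tyrobp and the brightest Syk probe set both lie at 0.61 with a wider interval for Syk, and Hcst at -0.10 lies left of 0.

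The activating IgG receptor gene Fcgr3 read 1293 and 1355 on the Ly49+ arrays, against 1028 and 1072 on the Ly49- arrays. The groups did not overlap, but the difference was small. The log2 difference of 0.33 ± 0.08 SE, or 1.26-fold with an interval of 1.11 to 1.42, did not pass (limma adjusted p = 0.12). With only the brightest probe set of each gene tested it passed, at an adjusted p of 0.041. Fcgr3 and Fcgr2b lie on chromosome 1, as does Fcer1g, and their nearest protein-coding neighbours in the RefSeq list include the further IgG receptor gene Fcgr4.

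The inhibitory IgG receptor gene Fcgr2b was read by 5 probe sets. The brightest, of a type that may also detect other transcripts, read 1239 and 1102 on the Ly49+ arrays, against 974 and 1014 on the Ly49- arrays. Its log2 difference was 0.23 ± 0.09 SE (limma adjusted p = 0.33). In 4 probe sets, all above the bacterial control level, both Ly49+ arrays read above both Ly49- arrays, with log2 differences of 0.13 to 0.24 and adjusted p of 0.33 to 0.58. None of these passed. The fifth read under the bacterial control level in both groups, at 10.98 and 10.5 in Ly49+ and 10.9 and 10.3 in Ly49- cells. The probe sets read the same gene and are not independent of each other.

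Ncr1, which marks most NK cells, read 34.9 and 44.8 on the Ly49+ arrays, against 35.2 and 44.6 on the Ly49- arrays. Both groups lay under the bacterial control level, and replicate 1 was lower than replicate 2 in each. No fold is given for it. A single probe set under that level cannot show whether NK-cell transcripts were present. Fcer1g and Tyrobp were higher in Ly49+ cells on the same arrays, and a part of NK cells in that was not tested. With the array of Ly49- replicate 1 left out, the log2 difference was -0.12 for Hcst, 0.51 for the brightest Syk probe set, 0.30 for Fcgr3 and 0.20 for the brightest Fcgr2b probe set. None of these 4 passed there (limma adjusted p of 0.24 to 0.48).

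Macrophage genes moved in the same direction as Fcer1g and Tyrobp. Of 18 measured markers of macrophages and monocytes, 13 were higher in Ly49+ cells, 1 was lower (Cx3cr1) and 4 did not pass (Ccr2, C1qa, Itgam and Ctss), where 0.973% of all genes were called higher and 0.693% lower by their brightest probe set. Their median log2 difference was 0.65, with a range of -0.81 to 1.26, beside -0.04 over all genes. The lists were chosen with earlier results of these data known, so the counts are no independent test. The genes higher included Spic, a transcription factor of red pulp macrophages (1029 and 1211 in Ly49+, against 423 and 495 in Ly49- cells), and Adgre1, an adhesion receptor gene widely used as a macrophage marker (896 and 973 in Ly49+, against 574 and 599 in Ly49- cells). Summed intensity of the list was 49983 and 53986 on the Ly49+ arrays, and 39153 and 39123 on the Ly49- arrays. Of the 18 markers, 17 read above the bacterial control level in both groups, all but Itgam. The Fcer1g difference was exceeded by 1 of the 18 markers and that of Tyrobp by 11. Their part in the result was not tested, and in bulk samples more cells of a type and more RNA per cell cannot be told apart. Without a trend of the spread on the level, 4 of the markers were higher and 1 lower. When Ly49+ replicate 1 was dropped, 9 of the markers were higher, in a fit that called 104 of all probe sets. When Ly49+ replicate 2 was dropped, 1 was higher, in a fit that called 65. When Ly49- replicate 1 or 2 was dropped, 0 were higher by limma, in fits that called 49 and 31.

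In each of the other marker lists at most 1 gene passed in this fit. Of 7 measured NK-cell markers, 0 passed by limma, with a median of 0.02 and a range of -0.95 to 0.64. Their sums were 42408 and 41714 in Ly49+ and 41133 and 42051 in Ly49- cells. Most of each sum was Nkg7, at 24621 and 24620 in Ly49+ and 24517 and 24043 in Ly49- cells. Xcl1 (11478 and 9942 in Ly49+, against 8578 and 7278 in Ly49- cells) and Gzma (2181 and 3116, against 3916 and 6509) moved in opposite directions. The dimmer Itga2 (210 and 237, against 130 and 146) adds little to the sums. In 4 of the 7 (Itga2, Xcl1, Clnk and Nkg7) both Ly49+ arrays read above both Ly49- arrays, an order that 15.7% of all probe sets had. Gzma and Prf1 (log2 differences -0.95 and -0.08) had the reverse order, which 29.1% of all probe sets had. With the replicate block 3 of the 7 were called higher and 1 lower, where 856 of 45037 probe sets were higher and 559 lower. With 1 probe set per gene 3 were higher and 0 lower, where 352 of 18193 genes were higher and 375 lower. Of the 7, 5 read above the bacterial control level in both groups. Klrb1b was under it in both, and Clnk in Ly49- cells only, with a mean of 56.9. Of 12 B-cell markers 1 was higher, Cd22 (2191 and 2361 in Ly49+, against 1082 and 1095 in Ly49- cells), at a list median of 0.07. Of the 12, 9 read above the bacterial control level in both groups, with Ighm highest at 13508 and 14523 in Ly49+ and 14415 and 15442 in Ly49- cells. Pax5, Cr2 and Fcer2a were under that level in both groups. Of 10 dendritic-cell markers 1 was higher, the chemokine receptor gene Xcr1, at a list median of 0.21; it was not called when any 1 array was left out. None of 9 mast cell and basophil markers passed, and Fcer1a and Ms4a2, which encode the other chains of the IgE receptor, were under the bacterial control level. Of 13 T-cell markers none passed, with a median of -0.01. Neutrophil, platelet and erythroid markers had medians of -0.09, -0.04 and 0.04, with S100a9 lower among the first and Itgb3 lower among the platelet genes. Neither the neutrophil nor the platelet list had a call when any 1 array was left out, or without a trend.

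**Figure D3:**
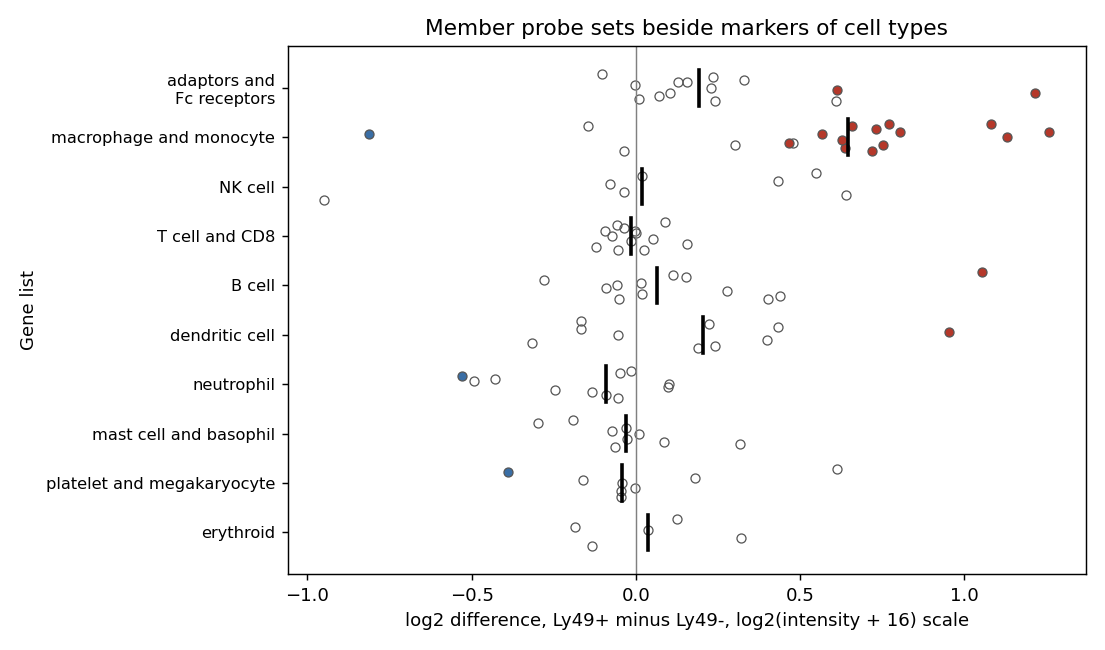
Log2 difference of Ly49+ minus Ly49- for the 14 adaptor and Fc receptor probe sets and for the brightest probe set of each marker gene, a point each, filled red (higher) or blue (lower) where the adjusted p was under 0.05, with a black bar at the median. The macrophage and monocyte points centre at 0.65, while the NK-cell and T-cell medians lie at 0.02 and -0.01.

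Several receptors that signal through FcRγ or DAP12 rose too. Of 21 measured, 7 were higher in Ly49+ cells, 0 lower and 14 did not pass, where 0.973% of all genes were called higher. The median log2 difference of the 21 was 0.21. Of the 21, 11 read above the bacterial control level in both groups and 9 in neither. The 7 include Klra8, a Ly49 gene, whose call follows from the sort and is no separate result. The 7 fall into receptors known from NK cells and receptors known from myeloid cells. Of the NK type, Klra8, a DAP12-pairing Ly49 receptor and so part of the sort, was 6.48-fold higher (3679 ± 393 against 552 ± 13.2, SD, n = 2 each, Ly49+ against Ly49-). Klrk1, listed here as a DAP12-pairing receptor, encodes NKG2D, which is also the partner of DAP10. Klrk1 read 3428 and 3436 in Ly49+ and 2081 and 1972 in Ly49- cells, 1.69-fold higher (limma adjusted p = 0.0046), while Hcst did not pass the test. Klrc2, which encodes the DAP12 partner NKG2C, was 2.61-fold higher (294 ± 0.578 against 103 ± 5.08). Klrb1a, an FcRγ-pairing lectin, was called higher at 112 ± 0.915 against 52.4 ± 7.72, and no size is given since the Ly49- mean was under the bacterial control level. The Klra8 probe set may also detect related Ly49 transcripts.

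Of the myeloid type, Clec4n, which encodes the FcRγ partner Dectin-2, was 1.92-fold higher (539 ± 27.2 in Ly49+ against 275 ± 33.3 in Ly49- cells, SD, n = 2 each). Pilrb1, a DAP12 partner, was 1.75-fold higher (1268 ± 200 against 714 ± 35.3). Fcgr1, the high-affinity IgG receptor that needs FcRγ, was 1.63-fold higher (414 ± 43.4 against 248 ± 0.447). Macrophage markers were higher on the same arrays, as given above. Of the 7 genes, Klra8 passed in each fit without 1 array. Klrk1 was no longer called when replicate 2 of Ly49+ (limma adjusted p = 0.055) or of Ly49- (0.053) was dropped, and Klrc2 when Ly49- replicate 1 (0.062) or 2 (0.064) was. Among these fits, Pilrb1 was called only in the one that dropped Ly49+ replicate 1, and had 0.14 when Ly49+ replicate 2 and 0.17 or 0.16 when Ly49- replicate 1 or 2 was dropped. Clec4n, Klrb1a and Fcgr1 passed in none of these fits, with adjusted p of 0.086 to 0.13, 0.092 to 0.15 and 0.11 to 0.24. Without a trend, Pilrb1 had 0.086 and Fcgr1 0.062, and with a pseudocount of 64 Fcgr1 had 0.063. Without Ly49- replicate 1, 2 of the 21 were called.

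None of the 6 ITAM chains of the antigen receptors passed by limma, with a median of -0.01 and a range of -0.28 to 0.28. Cd247, the CD3ζ chain that can stand beside FcRγ in NK receptors, read 5739 and 5561 in Ly49+ and 6256 and 6033 in Ly49- cells (log2 difference -0.12, adjusted p = 0.34). Cd79b, the Igβ chain of the B-cell receptor, read 2050 and 2020 in Ly49+ and 2488 and 2462 in Ly49- cells (-0.28, adjusted p = 0.096). Cd79b was called lower with the replicate block (adjusted p = 0.048) and with 1 probe set per gene (0.027).

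**Figure D4:**
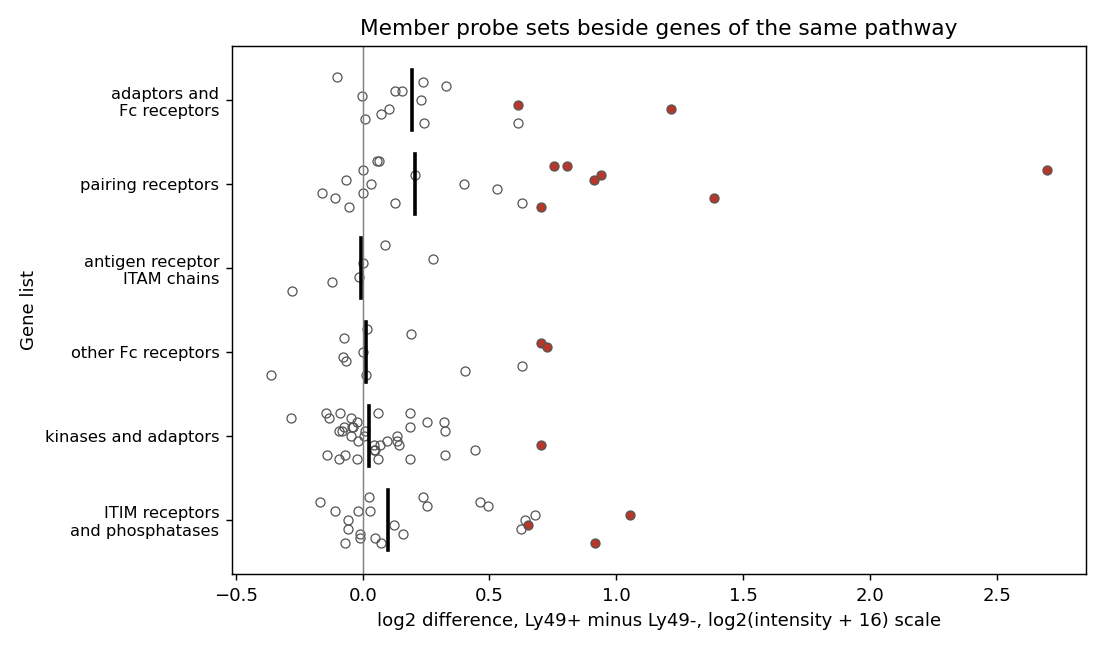
Log2 difference of Ly49+ minus Ly49- for the 14 adaptor and Fc receptor probe sets and for the brightest probe set of each gene in 5 pathway lists, a point each, filled where the adjusted p was under 0.05, with a black bar at the median. Called genes lie among pairing receptors (7 of 21), other Fc receptors (2 of 12), ITIM receptors and phosphatases (3 of 24) and kinases and adaptors (1 of 38), and none among the 6 antigen receptor ITAM chains. The 7 pairing receptors include Klra8, a gene of the sort.

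Of 12 further Fc receptor and Fc receptor-like genes measured, 2 were higher, 0 lower and 10 did not pass, with a median of 0.01. Of all genes, 0.973% were called higher and 0.693% lower. Of the 12, 7 read above the bacterial control level in both groups and 5 in neither. Besides Fcgr1, Fcrl1, a receptor-like gene best known from B cells, was 1.66-fold higher (347 ± 19.6 in Ly49+ against 203 ± 1.08 in Ly49- cells, SD, n = 2 each, adjusted p = 0.033). Fcrl1 missed the threshold with any 1 array left out, with adjusted p of 0.14 to 0.20. Fcgr4, another FcRγ-dependent IgG receptor, read 506 and 658 in Ly49+ and 318 and 425 in Ly49- cells and did not pass (limma adjusted p = 0.19). Fcgrt, also of this list, had the reverse order, at 3769 and 3978 in Ly49+ against 4670 and 5312 in Ly49- cells. Its log2 difference of -0.36 did not pass (limma adjusted p = 0.080). With the replicate block the list had 3 genes higher and 1 lower, where 856 of 45037 probe sets were higher and 559 lower. With 1 probe set per gene it had 2 higher and 1 lower, where 352 of 18193 genes were higher and 375 lower.

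Downstream of the ITAMs, 1 of 38 measured kinases and adaptors was higher, 0 lower and 37 did not pass, with a median of 0.03. That share is near the 0.973% of all genes called higher. With 1 probe set per gene 3 were higher and 1 lower, where 352 of 18193 genes were higher and 375 lower. The gene called in the main fit was Lat2, which encodes the adaptor NTAL of myeloid and B cells. It read 217 and 235 in Ly49+ against 135 and 130 in Ly49- cells (1.63-fold, limma adjusted p = 0.040). Lat2 missed the threshold with any 1 array left out (adjusted p of 0.14 to 0.24) and with a pseudocount of 64 (0.052). Zap70, the T-cell relative of Syk, read 5499 and 5811 in Ly49+ and 5850 and 5752 in Ly49- cells, with overlapping groups (log2 difference -0.04, adjusted p = 0.80).

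Of 24 measured ITIM receptors and phosphatases, 3 were higher, 0 lower and 21 did not pass, with a median of 0.10, where 0.973% of all genes were called higher and 0.693% lower. Cd22, an inhibitory lectin of B cells, was 2.07-fold higher (adjusted p = 0.0027) and passed in each fit without 1 array. Sirpa, the CD47 receptor of macrophages, was 1.89-fold higher (2573 ± 329 in Ly49+ against 1351 ± 66.2 in Ly49- cells, SD, n = 2 each, adjusted p = 0.013). Pirb, an inhibitory MHC class I receptor of myeloid and B cells, was 1.57-fold higher (333 ± 20.9 against 206 ± 2.38, adjusted p = 0.049). Of the fits without 1 array, Sirpa was called only in the one that dropped Ly49+ replicate 1. It had an adjusted p of 0.063 when Ly49+ replicate 2 was dropped, 0.089 or 0.11 when Ly49- replicate 1 or 2 was, and 0.055 without a trend. Pirb passed in none of these fits (0.16 to 0.26), and it had 0.067 with a pseudocount of 64 and 0.050 without a trend. In this list 6 genes were called higher after quantile normalization, with a pseudocount of 1, with a robust spread and with the replicate block. The same number was called with only probe sets above the bacterial control level. Those fits called 364 to 856 of all probe sets higher. With 1 probe set per gene 7 were higher, in a fit that called 352 genes higher. With a pseudocount of 64 the count was 2, and without a trend 1, in fits that called 306 and 165 higher.

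The profiles most like that of Fcer1g over the 4 arrays, by Euclidean distance of centred log2 values among 12722 genes above the bacterial control level, were those of Pdgfb (distance 0.04, log2 difference 1.22), Marchf1 (0.08, 1.29) and Tcf7l2 (0.14, 1.19). For Tyrobp they were Clec4a2 (0.03, 0.64), Stom (0.04, 0.58) and Mgst1 (0.04, 0.63). Pdgfb read 1212 and 1251 in Ly49+ and 529 and 508 in Ly49- cells, and Clec4a2, a C-type lectin with an ITIM, 230 and 251 in Ly49+ and 151 and 146 in Ly49- cells. The genes like Tyrobp did not pass the test (adjusted p of 0.053 to 0.056). The likeness rests on 4 arrays.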

How the data were processed

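RNA of 4 samples was measured, 2 Ly49+ and 2 Ly49-, and the titles of the samples gave group and replicate number. Per the labels, RNA was purified with RNeasy columns, and cRNA carrying biotin was made for Affymetrix arrays. The deposited values were linear intensities per probe set, from 8.32 to 43959, read as such from the values. Their quartiles were close between arrays, with a lower quartile of 40.8 to 42.0 and an upper one of 1418 to 1457. Which normalization the authors applied was not given in the sources used here. Precision is limited by the number of arrays.

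Names of probe sets came from the 2016 annotation of the platform: 34945 had 1 gene symbol, 932 several and 9160 none listed, and 64 were controls. Gene IDs of 34754 matched a RefSeq list (GRCm38.p6), which changed 0 symbols. Values were taken as log2(intensity + 16) without further normalization and fitted over 45037 probe sets with limma 3.58.1 in R 4.3.3 (spread following a trend on the level, no term besides group, degrees of freedom 2 residual and 5.05 prior), with tables read by the R package data.table (version 1.17.8). A listed gene was read by its probe set with the highest mean; 34 list entries had no probe set of their own symbol and were not analysed here. The test was tried on simulated data. The members and lists were chosen with earlier results of these data known. Named genes were all member probe sets, up to 6 called genes of each pathway list by the smallest p (2 where none was called), and the 3 genes with the profile nearest to each called member. Fcgr4, Fcgrt, Zap70 and the marker genes given by name were chosen after their values were seen. Alternatives were quantile normalization, pseudocounts of 1 and 64, only probe sets above the bacterial control level, 1 probe set per gene, no trend, a robust spread, a replicate block and each array left out, where the remaining single array was given the other group's spread.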

Additional observations from a re-analysis of the deposited data

How the results depend on the processing

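Under 12 other settings the Fcer1g log2 difference lay between 1.16 and 1.27 and passed in each (limma adjusted p from 6.1e-05 to 0.038). Tyrobp lay between 0.56 and 0.66 and kept its call in 7 of them. Hcst did not pass in any, with log2 differences of -0.13 to -0.07. The 14 probe sets gave 4 calls with 1 probe set per gene (of 7 tested), 1 without a trend, and 1 in every fit that left out an array. Over all probe sets, 538 were called, against 233 without a trend, 1415 with the replicate block and 31 to 104 with 1 array left out; with 1 probe set per gene, 352 genes were higher and 375 lower. Some differences close to 0 changed sign, none past the threshold; those of Ncr1 and the dimmest Fcgr2b probe set lie under the bacterial control level and are no measure of size. For Ncr1 this gave 0.013 after quantile normalization, and -0.13 to 0.13 in fits without 1 array. For Syk fits without 1 array gave -0.044 to 0.36 in one probe set and -0.039 to 0.25 in another. For that Fcgr2b probe set they gave -0.0081 to 0.027. The cause was not tested. The labels do not say that replicate numbers pair the samples. Differences between replicates 1 and 2 correlated at 0.24 between the groups, and with the replicate block 3 member probe sets passed, the brightest of Syk among them (adjusted p = 0.025). With 2 arrays a group, a p that misses the threshold does not show that values did not differ.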

Other observations

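The spiked hybridisation controls of Ly49- replicate 1 were low for all 9 probe sets of BioB, BioC, BioD and Cre. The Cre 3' probe set read 37740 and 38950 on the Ly49+ arrays, and 26530 and 36420 on the arrays of Ly49- replicates 1 and 2. The 3' to 5' ratio of the Actb control, a sign of RNA quality, was 1.26 and 1.29 on the Ly49+ arrays and 1.37 and 1.34 on the Ly49- arrays.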
